A study of Arabidopsis thaliana with 12 samples.

Results

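GH3.3 (AT2G23170) and HAT2 (AT5G47370) are 2 Arabidopsis genes linked to the hormone auxin, and each was measured by 1 probe set on the Affymetrix ATH1 array. They were chosen as the probe sets that the platform's names table pairs with 1 of these genes alone, so there are 2 members among 22810 probe sets, of which 13513 carry a single gene symbol. Both passed the filter on low values and were among the 15922 probe sets tested. RNA came from whole light-grown seedlings, 7 days old, in 4 groups of 3 arrays that the submitters describe as independent biological replicates. The groups were the gibberellin (GA) receptor triple mutant gid1a-1 gid1b-1 gid1c-2 (called gid1) given 100 µM GA3 for 1 h, the same mutant mock-treated for 1 h, the GA biosynthesis mutant ga-1 (SALK_109115) given 100 µM GA3 for 1 h, and ga-1 mock-treated for 1 h. Every group therefore carries a defect in making or in sensing GA, and there is no wild type among them. In whole seedlings, fewer cells of a type and less RNA per cell cannot be told apart.

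Auxin acts by joining TIR1/AFB receptors to Aux/IAA repressors, which are then degraded, so that auxin response factors can switch on early genes. GH3.3 is one of these early genes. Its enzyme joins free auxin to amino acids and so lowers the free pool, which makes the transcript both a readout of auxin signalling and a part of its feedback. HAT2 encodes a homeodomain-leucine zipper protein of class II, a family of transcriptional repressors, and it is induced by auxin and by shade light. GA binds GID1 receptors, which leads to the loss of the DELLA repressors, and both hormones promote cell elongation in seedlings. The comparisons asked whether 1 h of GA3 touches these auxin-linked transcripts and whether that needs the receptors.

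The labels and the hormone treatment were checked on GA genes. XERICO, a gene known to be raised by DELLA proteins, fell to 436 ± 93.1 in ga-1 with GA3, against 1943 ± 56.9 in ga-1 mock (SD, n = 3 each; limma adjusted p = 2.0e-07), and stood at 1850 ± 152 in gid1 with GA3 and 2085 ± 154 in gid1 mock. The receptor genes GID1A and GID1B were 60.7 ± 15.9 and 62.9 ± 13.8 in gid1 mock, against 679 ± 35.9 and 514 ± 48.9 in ga-1 mock (SD, n = 3 each; limma adjusted p = 2.4e-07 and 3.6e-06). GID1C stood at 125.1 ± 39.8 in gid1 mock and 100.9 ± 22.5 in ga-1 mock (SD, n = 3 each). Where its probes lie relative to the mutation was not examined, and the GA1 transcript was not analysed. RCA, the Rubisco activase gene of green tissue, had signals between 20341 and 28560 on the 12 arrays, and PYK10, a root gene, between 9196 and 14060. The other root marker, the root hair expansin gene EXPA7, had 101.5 to 141.7 in gid1 with GA3 and 42.9 to 97.0 in gid1 mock, without overlap, and 64.7 to 104.5 in ga-1 with GA3 and 97.8 to 139.9 in ga-1 mock. The summed signal of the 8 seed markers with a named probe set was 1862 to 4345 in gid1 with GA3 and 290.4 to 632.3 in gid1 mock, and 535.5 to 698.0 in ga-1 with GA3 and 433.8 to 2778 in ga-1 mock. The highest ga-1 mock array thus lay within the range of gid1 with GA3. Most of the sum in gid1 with GA3 was AT3G02480, with 1059 to 3040 in gid1 with GA3 and 89.0 to 280.7 in gid1 mock. AT3G02480, ICL, PAP85 and LEA18 were higher in gid1 with GA3 than in gid1 mock without overlap, where 4.74% of the probe sets tested were so. LEA18, with 80.1 to 175.2 in gid1 with GA3 and 4.1 to 5.2 in gid1 mock, lay below the filter. That share therefore does not cover it. The other 4 of the 8 markers overlapped. Among the overlapping markers, AT1G03890 had 2.9 to 16.6 in gid1 with GA3 and 11.0 to 25.8 in gid1 mock. Of the 8 markers 4 passed the filter on low values, and none of these was called for GA3 against mock in gid1, where 0% of the probe sets tested were called. No seed marker was at 0. The mean log2 of the seed markers was 6.36 to 7.07 in gid1 with GA3, without overlap with gid1 mock (4.46 to 5.34) or ga-1 with GA3 (4.94 to 5.30). In comparisons that use gid1 with GA3, the seed covariate fits given below therefore cannot tell these markers from the group. The part of seed and root tissue in the results was not tested.

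**Figure D1:**
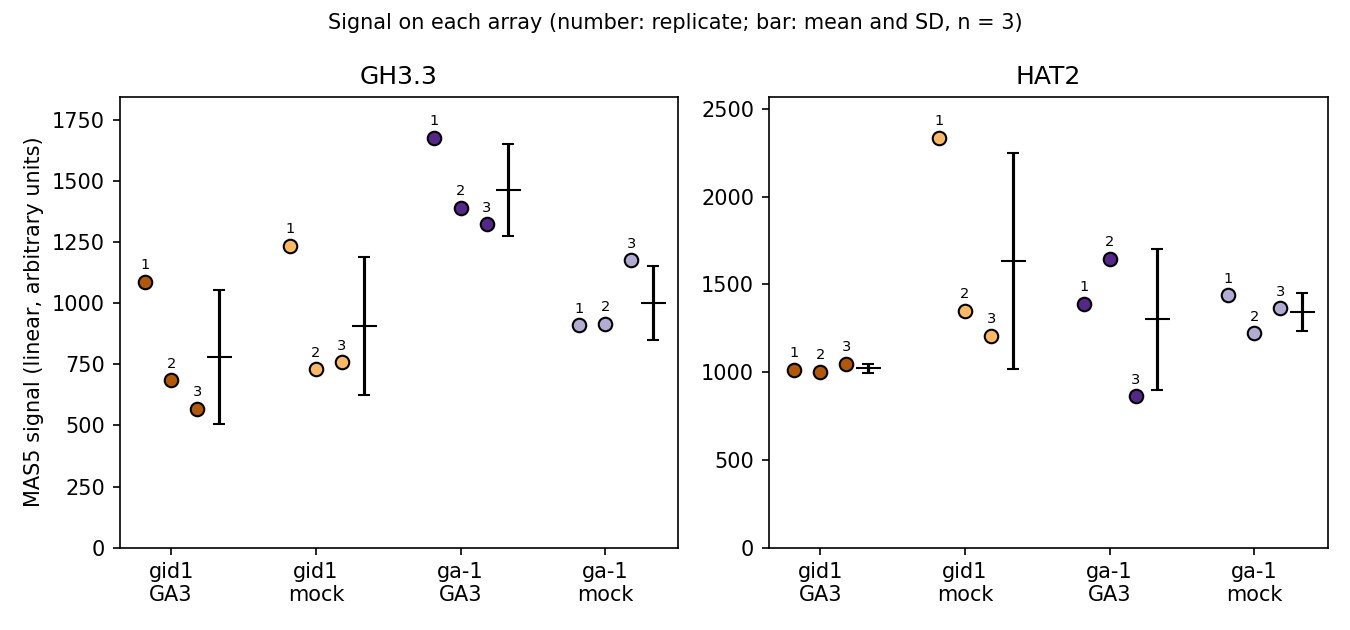
MAS5 signal (linear, arbitrary units) of GH3.3 and HAT2 on each of the 12 arrays, with replicate numbers beside the points and bars for the mean and SD of 3 arrays. For GH3.3 the 3 arrays of ga-1 with GA3 lie above all other arrays, and for HAT2 the 3 arrays of gid1 with GA3 lie close together between 1001.6 and 1046.1.

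In ga-1, GH3.3 was higher on every GA3 array, but the difference did not pass the test over all probe sets. GH3.3 had signals of 1678.5, 1391.1 and 1323.4 in ga-1 with GA3, against 911.1, 915.6 and 1175.9 in ga-1 mock. The groups did not overlap, and the lowest GA3 array stood above the highest mock array. The means were 1464 ± 189 and 1001 ± 152 (SD, n = 3 each), and the log2 difference was 0.55 ± 0.22 (SE), a ratio of 1.47 with a 95% interval of 1.06 to 2.03. The interval is that of a single gene and does not include 1, whereas limma's adjusted p over the 15922 probe sets was 0.53 (0.024 before adjustment). In this comparison 6.85% of the probe sets tested were higher with GA3 without overlap, 0.126% were called higher and 0.81% were called in either direction. A log2 difference at least as high as that of GH3.3 was found in 2.55% of the probe sets tested. The summed signal of the guard cell lineage markers SPCH, MUTE and FMA was 359.3 to 382.9 in ga-1 with GA3 and 427.6 to 509.6 in ga-1 mock. Of the 3, 1 was called lower, beside the 0.81% of all probe sets tested called in either direction. SPCH, which starts the lineage, had 100.1 to 139.8 in ga-1 with GA3 and 203.9 to 289.1 in ga-1 mock. FMA, which acts at its end, had 170.5 to 231.0 in ga-1 with GA3 and 128.5 to 174.5 in ga-1 mock. In gid1, SPCH had 135.1 to 231.0 with GA3 and 201.5 to 296.3 in mock, and FMA had 161.7 to 200.3 and 147.7 to 178.8, both with overlap. The part of these cells in the result was not tested.

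HAT2 did not follow GH3.3 in ga-1. Its signals were 1389.6, 1645.9 and 863.2 in ga-1 with GA3, against 1438.9, 1222.3 and 1365.0 in ga-1 mock. The GA3 arrays lay on both sides of the mock arrays, with the spread set by replicate 3, the lowest of all 12 arrays for this gene. The means were 1300 ± 399 and 1342 ± 110 (SD, n = 3 each). The log2 difference was -0.09 ± 0.22 (SE; limma adjusted p = 0.97), a ratio of 0.937 with a 95% interval of 0.674 to 1.30, so a rise of up to 1.30-fold or a fall to 0.674 of the mock level lay within the interval. Without replicate 3 of ga-1 with GA3 the log2 difference was 0.18 (adjusted p = 0.83), which turned its direction.

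In gid1, where all of the GID1 receptor genes are mutated, GH3.3 showed no difference beyond the spread between arrays. It had 1087.9, 685.9 and 567.7 in gid1 with GA3, against 1234.9, 730.9 and 758.7 in gid1 mock. Replicate 1 was the highest array of both groups, and the groups overlapped. The means were 780.5 ± 273 and 908.2 ± 283 (SD, n = 3 each), with a log2 difference of -0.23 ± 0.22 (SE; limma adjusted p = 0.95) and a ratio between 0.615 and 1.18 (95% interval). Without replicate 1 of gid1 mock the log2 difference was 0.01, without replicate 1 of gid1 with GA3 it was -0.50, and without replicate 3 of gid1 with GA3 it was -0.03.

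HAT2 was the member with the lower GA3 arrays in gid1, again without passing the test. Its signals were 1013.9, 1001.6 and 1046.1 in gid1 with GA3, against 2336.3, 1349.1 and 1206.8 in gid1 mock. The groups did not overlap, but replicate 1 of gid1 mock stood far above the other arrays of its group. The means were 1021 ± 23.0 and 1631 ± 615 (SD, n = 3 each), so the SD differed widely between the groups. The log2 difference was -0.61 ± 0.22 (SE), a ratio of 0.654 with a 95% interval of 0.470 to 0.908, and limma's adjusted p was 0.94 (0.014 before adjustment). Without replicate 1 of gid1 mock the log2 difference was -0.32, with an SE of 0.20 in that fit. In this comparison 4.37% of the probe sets tested were lower with GA3 without overlap. Limma called 0 probe sets, while 838 (5.26%) had an unadjusted p under 0.05. The summed seed markers and EXPA7 given above were higher in the same 3 arrays of gid1 with GA3. The other root marker, PYK10, overlapped, with 9196 to 13852 in gid1 with GA3 and 10766 to 13164 in gid1 mock. With the mean of the seed markers as a covariate the log2 difference of HAT2 was -0.51 ± 0.36 (SE).

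**Figure D2:**
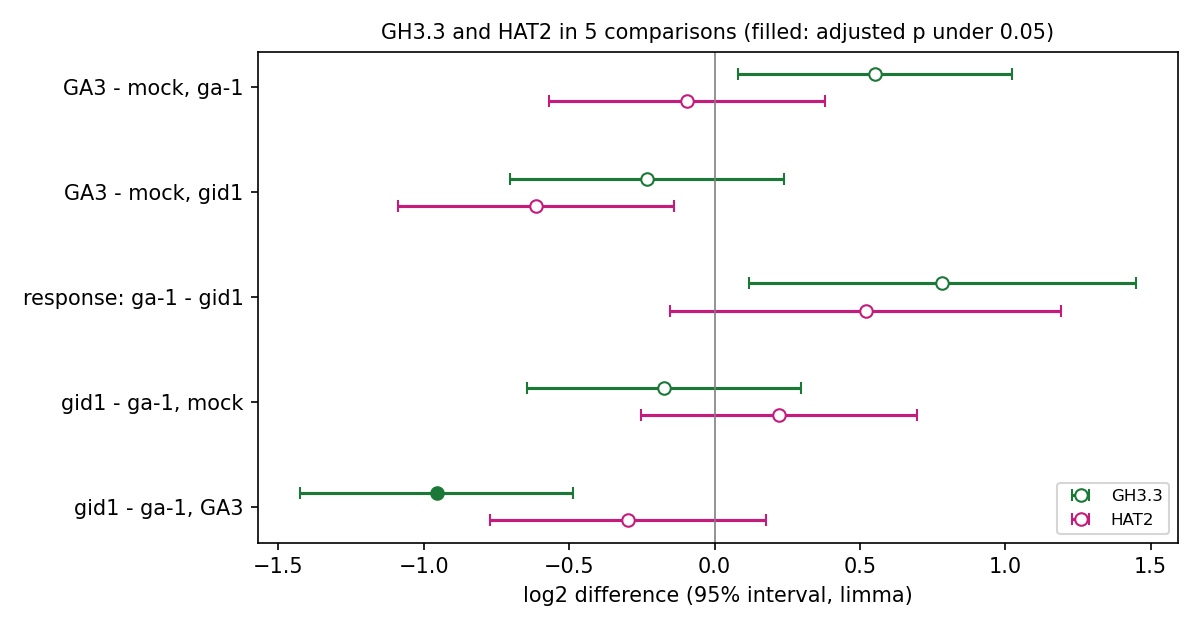
Log2 differences of GH3.3 and HAT2 in the 5 comparisons, with 95% intervals from limma on the horizontal axis and filled points where the adjusted p over all probe sets was under 0.05. The filled point is GH3.3 in gid1 against ga-1 with GA3, at -0.96, and the intervals of HAT2 include 0 except in gid1 with GA3 against mock.

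The responses of the mutants were then set against each other, as ga-1 minus gid1. The mutants differ in the receptors and also in the defect in making GA, which ga-1 carries. With no wild type, this comparison cannot tell the receptors apart from the other differences between the mutants. For GH3.3 the difference of the log2 responses was 0.78 ± 0.31 (SE), with a 95% interval of 0.12 to 1.45 and a limma adjusted p of 0.64 (0.024 before adjustment). It combines a positive value in ga-1 (0.55) with a negative one in gid1 (-0.23). For HAT2 it was 0.52 ± 0.32 (SE), with a 95% interval of -0.15 to 1.19 and an adjusted p of 0.83, and it combines -0.09 in ga-1 with -0.61 in gid1. Single arrays moved it widely, to 0.23 without replicate 1 of gid1 mock, 0.32 without replicate 2 of ga-1 with GA3 and 0.79 without replicate 3 of ga-1 with GA3 (adjusted p = 0.39). Of all probe sets tested, 0.22% were called for this difference. A need of GH3.3 or HAT2 for the GID1 receptors was not shown at 3 arrays per group, and the intervals do not show the responses to be alike.

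With GA3 present, GH3.3 was lower in gid1 than in ga-1, the one comparison in which either member was called. The signals were 1087.9, 685.9 and 567.7 in gid1 with GA3, against 1678.5, 1391.1 and 1323.4 in ga-1 with GA3. The groups did not overlap. The log2 difference was -0.96 ± 0.22 (SE), a ratio of 0.516 with a 95% interval of 0.372 to 0.714, and limma's adjusted p was 0.045. In this comparison 6.72% of the probe sets tested were lower in gid1 without overlap and 0.352% were called lower. The arrays of ga-1 with GA3 also enter the comparisons above, so these values are not independent of them. The call was close to the threshold. It was lost without replicate 1 (log2 difference -0.85, adjusted p = 0.20) or replicate 2 (-0.99, adjusted p = 0.11) of ga-1 with GA3 and without replicate 2 (-0.89, adjusted p = 0.19) or replicate 3 (-0.75, adjusted p = 0.20) of gid1 with GA3. With the mean of the seed markers as a covariate the log2 difference was -0.92 ± 0.34 (SE; adjusted p = 0.54), a similar size with a wider error.

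HAT2 had 1013.9, 1001.6 and 1046.1 in gid1 with GA3, against 1389.6, 1645.9 and 863.2 in ga-1 with GA3. The groups overlapped through the low replicate 3 of ga-1, and the log2 difference was -0.30 ± 0.22 (SE; limma adjusted p = 0.71). It was -0.10 without replicate 2 of ga-1 with GA3 and -0.57 without replicate 3 of that group (adjusted p = 0.23).

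Without GA3 the mutants could not be separated for either member. GH3.3 averaged 908.2 ± 283 in gid1 mock and 1001 ± 152 in ga-1 mock (SD, n = 3 each), a log2 difference of -0.17 ± 0.22 (SE; limma adjusted p = 0.99) with a 95% interval of the ratio from 0.640 to 1.23. It was -0.42 without replicate 1 of gid1 mock, -0.04 and -0.06 without replicates 2 and 3 of that group, and -0.05 without replicate 3 of ga-1 mock. HAT2 averaged 1631 ± 615 in gid1 mock and 1342 ± 110 in ga-1 mock (SD, n = 3 each), a log2 difference of 0.22 ± 0.22 (SE; adjusted p = 0.99), which was -0.07 without replicate 1 of gid1 mock and 0.41 without replicate 3 of that group. Only 0.0188% of the probe sets tested were called between the mock groups, the mutated receptor genes GID1A and GID1B among them.

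By group mean, GH3.3 was ordered from gid1 with GA3 (780.5) through gid1 mock (908.2) and ga-1 mock (1001) to ga-1 with GA3 (1464). The arrays of the first 3 groups overlapped, and ga-1 with GA3 stood above them without a call against ga-1 mock. For HAT2 the order was gid1 with GA3 (1021), ga-1 with GA3 (1300), ga-1 mock (1342) and gid1 mock (1631), and no pair of neighbours was separated by the test.

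The GH3 family of enzymes, to which GH3.3 belongs, joins hormones to amino acids. Of 11 GH3 genes in the RefSeq table, 5 had a named probe set of which GH3.1, with 2.8 to 24.2 on all arrays, lay below the filter, leaving 4 for the test. WES1 (GH3.5), whose enzyme also conjugates auxin, averaged 854.2 ± 129 in ga-1 with GA3 and 873.5 ± 96.9 in ga-1 mock (SD, n = 3 each), a log2 difference of -0.04 with a 95% interval of -0.31 to 0.24. In gid1, WES1 had 723.9, 677.2 and 700.4 with GA3, against 906.8, 930.6 and 945.0 in mock. These groups did not overlap, and the log2 difference was -0.41 ± 0.13 (SE; limma adjusted p = 0.94), the same direction as HAT2 in the same arrays. GH3.17 had log2 differences of -0.19 in ga-1 and -0.13 in gid1. GH3.9 had 0.46 in ga-1 and -0.59 in gid1, with the widest error of the family (SE 0.42). The median log2 difference of the 4 tested GH3 genes, GH3.3 included, was 0.21 in ga-1 and -0.32 in gid1, beside medians of all probe sets tested of 0.01 and 0.01. In ga-1, 2 of the 4 were positive and 2 negative, so the median there is not a shared shift of the family. In gid1 all 4 were negative, but the 95% intervals of GH3.3, GH3.17 and GH3.9 include 0. Without replicate 1 of gid1 mock GH3.3 was at 0.01 there, so no shared shift is read in gid1 either. None of the 4 was called for GA3 against mock, where 0.81% of the probe sets tested were called in ga-1 and 0% in gid1, so the count of calls does not set the family apart. Whether the GH3.3 probes also bind transcripts of near relatives was not examined.

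Among the Aux/IAA repressors, 7 of 32 genes had a named probe set, and 3 of these passed the filter. IAA29, itself induced by auxin and shade, had differences close in size to those of GH3.3. Its signals were 400.9, 283.2 and 261.3 in ga-1 with GA3, against 224.4, 189.6 and 227.6 in ga-1 mock. The groups did not overlap, and the log2 difference was 0.54 ± 0.23 (SE; limma adjusted p = 0.55), or 0.35 without replicate 1 of ga-1 with GA3. In gid1 the signals were 148.4, 184.2 and 168.7 with GA3 and 124.9, 186.3 and 234.7 in mock, a log2 difference of -0.08. Between the mutants with GA3, IAA29 had a log2 difference of -0.90 ± 0.23 (gid1 minus ga-1, SE; adjusted p = 0.075) without overlap, just outside the threshold that GH3.3 passed. IAA18 ran the other way, with 579.5, 567.9 and 681.1 in ga-1 with GA3 against 807.6, 792.5 and 751.8 in ga-1 mock (log2 difference -0.37, adjusted p = 0.45). In gid1 the log2 difference of IAA18 was -0.07. Between the mutants with GA3, IAA18 was higher in gid1 without overlap (0.39 ± 0.14, SE; limma adjusted p = 0.25). IAA30 had a log2 difference of -0.07 in ga-1 and 0.17 in gid1.

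Genes of auxin synthesis and turnover were represented by 6 of 32, of which 3 were tested. UGT74D1, which encodes a glucosyltransferase acting on auxin, had 607.4, 595.2 and 698.9 in ga-1 with GA3, against 791.1, 850.0 and 938.0 in ga-1 mock. The groups did not overlap, and the log2 difference was -0.44 ± 0.13 (SE; limma adjusted p = 0.19). With GA3 in both, it was called higher in gid1, at 892.4, 1089.1 and 1174.6, against the ga-1 values just given, with a log2 difference of 0.73 ± 0.13 (SE; adjusted p = 0.0065), where 0.911% of the probe sets tested were called higher. That call was lost when the mean of the seed markers entered the fit (0.57 ± 0.19, SE; limma adjusted p = 0.45). The marker mean did not overlap between these groups, so that fit cannot tell the seed markers from the group. In the mock groups it was 1069 ± 21.1 in gid1 and 859.7 ± 73.9 in ga-1 (SD, n = 3 each; log2 difference 0.32, adjusted p = 0.99). YUC4, a flavin monooxygenase gene of auxin synthesis, had 36.4, 59.3 and 78.0 in ga-1 with GA3 and 109.8, 100.2 and 70.4 in ga-1 mock (log2 difference -0.73, adjusted p = 0.63, or -0.43 without replicate 1 of ga-1 with GA3). In gid1, YUC4 had 70.6, 77.0 and 89.3 with GA3 and 67.4, 58.3 and 69.1 in mock, higher without overlap. The log2 difference there was 0.28 (limma adjusted p = 0.96). Its difference of responses, ga-1 minus gid1, was -1.01 ± 0.48 (SE; limma adjusted p = 0.77), of opposite sign to that of GH3.3. YUC2 had a log2 difference of -0.39 in ga-1 (adjusted p = 0.73).

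**Figure D3:**
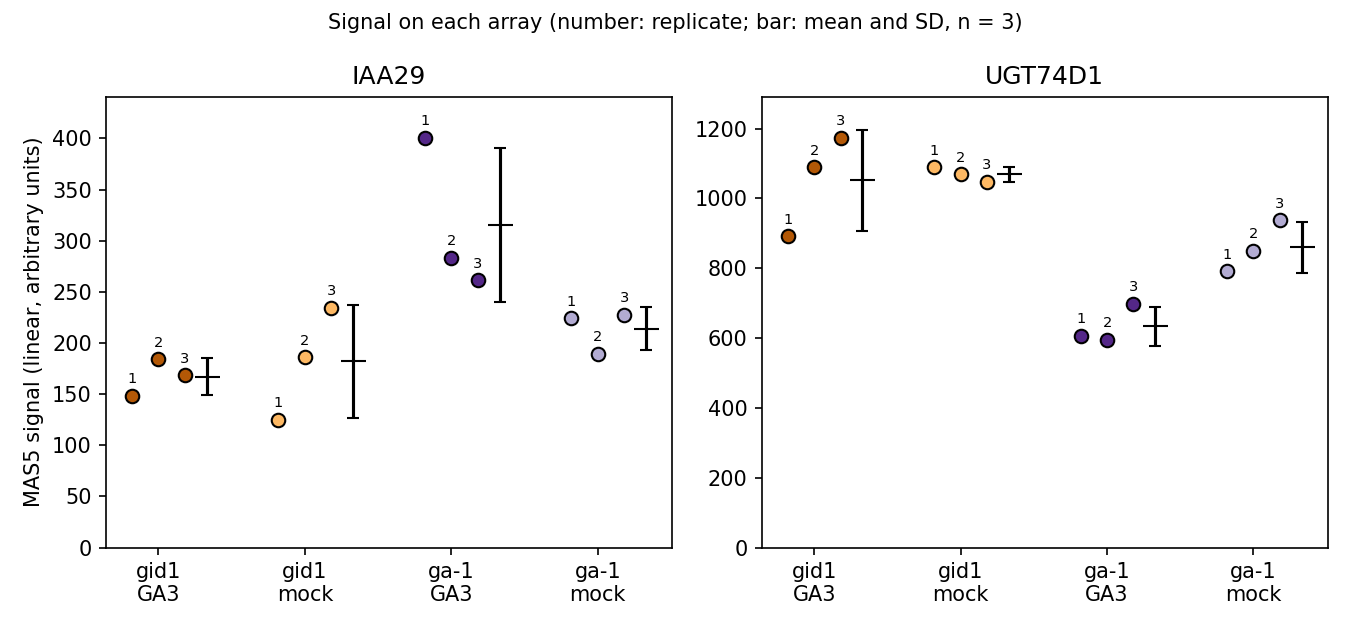
MAS5 signal (linear, arbitrary units) of IAA29 and UGT74D1 on each array, with replicate numbers and bars for the mean and SD of 3 arrays. In ga-1, IAA29 lies between 261.3 and 400.9 with GA3, above its mock arrays, and UGT74D1 between 595.2 and 698.9 with GA3, below its mock arrays.

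For HAT2 no other class II homeodomain-leucine zipper gene of the 12 listed had a named probe set, so its family could not be described. Of 17 shade-induced genes 3 were tested, namely HAT2, IAA29 and FHL, whose protein carries phytochrome A into the nucleus. FHL had log2 differences of -0.05 in ga-1 and -0.12 in gid1, where the 95% interval ran from -0.73 to 0.50. The SAUR genes (80 listed), the auxin response factors and TIR1/AFB receptors (31) and the auxin transporters (23) had no named probe set and were not analysed here. Over the 12 distinct auxin and shade genes tested, the members included, none was called for GA3 against mock in either mutant, beside 0.81% of all probe sets tested in ga-1 and 0% in gid1, and nothing is read from that count. In ga-1, 2 were higher and 2 lower without overlap, where 6.85% and 7.17% of all probe sets tested were so. In gid1, 1 was higher and 3 were lower, against 4.74% and 4.37% of all. With GA3 in both mutants 1 was called higher in gid1 (UGT74D1) and 1 lower (GH3.3), where 0.911% and 0.352% of all probe sets tested were so called.

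**Figure D4:**
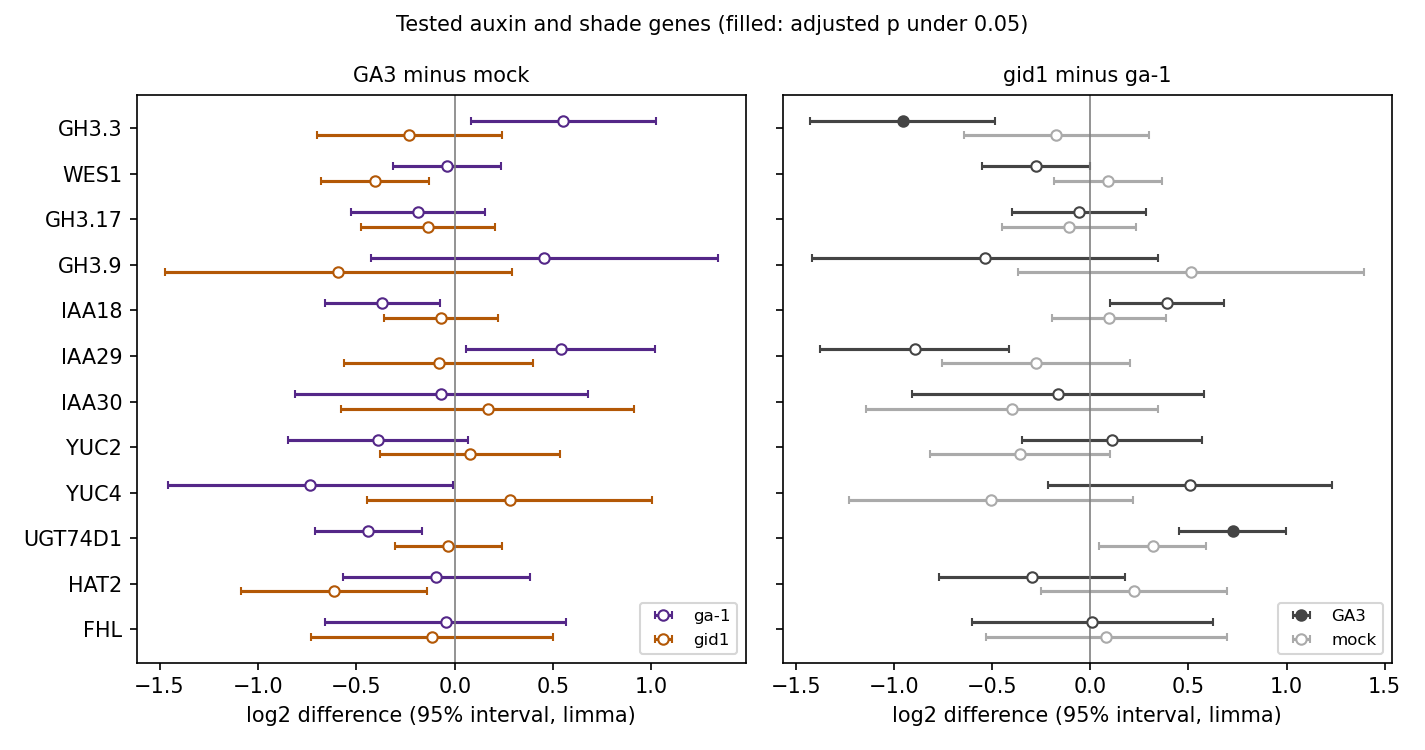
Log2 differences with 95% intervals (limma) for the 12 tested auxin and shade genes, with GA3 minus mock in ga-1 and gid1 on the left and gid1 minus ga-1 with GA3 and in mock on the right. Filled points mark an adjusted p under 0.05, which GH3.3 (-0.96) and UGT74D1 (0.73) reached between the mutants with GA3.

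GH3.3 and HAT2 were only loosely alike over the 12 arrays. The Pearson correlation of their log2 values was 0.35 (Spearman 0.42), and that of their deviations from the group means was 0.49. The named probe sets most like GH3.3, among 8769 compared, were AT5G08350 (r = 0.90), AT1G52300 (0.89), the F-box gene HWS (0.88), AT3G57450 (0.88) and the Golgi mannosidase gene GMII (0.88), beside a median r of -0.004 over all of them. AT5G08350 had log2 differences of 0.48 in ga-1 and -0.39 in gid1, the same signs as GH3.3, with adjusted p of 0.69 and 0.94. Those most like HAT2 were AT1G63830 (r = 0.92), AT2G30600 (0.90), AT5G57580 (0.88), AT3G51370 (0.88) and AT1G73750 (0.84), beside a median of 0.02. All 5 had negative log2 differences in gid1, between -0.20 and -0.51, and none was called. Without the pair of arrays farthest from the median of the member, r lay between 0.75 and 0.85 for the GH3.3 group and between 0.72 and 0.92 for the HAT2 group. These genes were picked as the highest of many, and the arrays share their treatment and mutant groups, so the correlations are descriptions. Picking by correlation over these arrays also favours log2 differences of the same sign as the member, so nothing is read from the shared signs.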

How the data were processed

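The 12 arrays were grouped by their titles, which also give the replicate numbers. A description field names GA3 for the mock arrays too, and the titles were followed. The values deposited by the authors are signal intensities from MAS5 (linear), per the submitters' processing notes, in which no version is given. The authors had scaled the arrays to a common level (array medians 169.7 to 188.8). Detection calls and scanner output were not used.

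Signals were floored at 1 and taken to log2. The 64 control probe sets and those with a mean log2 value under the 30th percentile (5.55) were left out, which kept 15922 of 22746. Array medians (7.41 to 7.56) spanned less than 0.5, so no centring was added. A linear model with 1 mean per group and all 12 arrays was fitted by limma 3.58.1 in R 4.3.3. The variance prior followed intensity (eBayes, trend), p-values were adjusted by Benjamini-Hochberg over all probe sets tested, and the threshold was 0.05. The code was tested on simulated data. Names came from the platform table, updated through a TAIR10.1 RefSeq gene table (13436 of 13513 matched). Members, gene lists and the rule for named genes (the members, called list members and up to 4 per list by smallest p, and the 5 highest correlations) were chosen with earlier results of these data known. Other tested list members are named outside that rule, after their values were seen. The planned promoter motif search was not run, since no sequences were used here. With 3 arrays per group, precision is low.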

Additional observations from a re-analysis of the deposited data

How the results depend on the processing

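The comparisons were repeated with 2 other scalings (quantile normalization and median centring), with the filter on low values dropped or made stricter, with log2(value + 32), with no intensity trend, in the compared groups alone (not possible for the difference of responses), with array weights, with a replicate block, with a seed-marker covariate and with each array left out. Leaving out both gid1 arrays of number 1 was chosen after seeing the data. It is counted among the alternatives for the members in the comparisons that use gid1. GH3.3 in ga-1 kept its sign and stayed uncalled in 16 of 16 alternatives (log2 0.45 to 0.67 with an array left out), and the difference of responses did so in 22 of 22 for GH3.3 (0.54 to 1.05) and for HAT2 (0.23 to 0.79). HAT2 in ga-1 ran from -0.29 to 0.18 and GH3.3 in gid1 from -0.50 to 0.012 with an array left out. HAT2 in gid1 stayed negative (-0.80 to -0.32), as did GH3.3 between the mock groups (-0.42 to -0.04) and HAT2 between the mutants with GA3 (-0.57 to -0.10) with an array left out. HAT2 between the mock groups ran from -0.070 to 0.41 with an array left out and was -0.070 without both gid1 arrays of number 1. The call of GH3.3 between the mutants with GA3 (-0.96) was kept in 8 of 17 alternatives. The call was lost with median centring (-0.94, adjusted p = 0.076), with no low-value filter (-0.96, adjusted p = 0.058) and with no intensity trend (-0.96, adjusted p = 0.17). It was also lost in the compared groups alone (-0.96, adjusted p = 0.072) and with the seed-marker covariate (-0.92). The log2 difference ran from -1.22 to -0.75 with an array left out. The cause was not tested.

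Counts of calls over all probe sets moved more. In ga-1 there were 129, and 60 with no intensity trend, with 66 to 102 when an array was left out. In gid1 there were 0, with 5 in the compared groups alone, 1 with the replicate block and 0 to 1 with an array left out. For the difference of responses there were 35, with 12 with no intensity trend, 7 with the seed-marker covariate, 19 without both gid1 arrays of number 1 and 17 to 65 with an array left out. Between the mock groups there were 3, with 0 under the stricter filter and 2 to 5 with an array left out. The mutated receptor genes GID1A and GID1B were among the 3, and the stricter filter left both out. Their calls were kept in the 15 alternatives examined that held them (highest limma adjusted p = 1.5e-05 and 1.8e-04). Between the mutants with GA3 there were 201, with 110 with no intensity trend, 120 in the compared groups alone, 33 with the seed-marker covariate and 125 to 290 with an array left out. Arrays of the same replicate number did not deviate together (correlation of deviations over 0.1 in 2 of 18 pairs, from -0.12 to 0.11), so the numbers were not taken as pairs. With the replicate block, GH3.3 between the mutants with GA3 kept its call (adjusted p = 0.023), and no other call on a member changed.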
